A study of Rattus norvegicus with 6 samples.

Results

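Circular RNAs (circRNAs) whose array signal was well above background in every normal rat lung and in no lung with acute respiratory distress syndrome (ARDS) numbered 252 of 14145 probes, or 1.78% of the circRNA probes on the array. They were chosen by the scanner software's well-above-background flag, required on all 3 arrays of normal lung and missing on all 3 arrays of ARDS lung. The flag was read from the ARDS and normal signals themselves, so the difference between the groups is given below for these probes as a description. No test of a single one of them is reported, and their counts of calls from the fit of all probes are described beside the share of all probes. The opposite pattern, above the detection threshold on every ARDS array and on no normal array, was shown by 0 probes.

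The study measured lung RNA of 6 adult male rats on 1-colour circRNA arrays, 3 from normal rats and 3 from rats whose ARDS was induced with lipopolysaccharide, which Gram-negative bacteria carry on their surface. The strain, the dose and the time after lipopolysaccharide are not given in the sources used here, and every array stands for 1 rat by the labels' numbering. RNA of both groups was treated with RNase R, amplified by random priming and labelled with Cy3. The scan of ARDS replicate 3 was separate from that of the other 5 arrays. Because whole lung was used, fewer cells of a type and less RNA per cell cannot be told apart. The probe numbers are not paired with host genes in the sources used here, so neither the genes of these circRNAs nor markers of lung cell types were analysed.

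A circRNA arises when the spliceosome joins the end of an exon to the start of the same or an earlier exon (back-splicing), which closes the RNA into a ring. Without free ends, most circRNAs resist exonucleases such as RNase R, and many are stable in cells. A circRNA shares its exons with the linear transcripts of its host gene, and only the back-splice junction sets it apart. Some circRNAs are known to bind microRNAs or proteins. Lipopolysaccharide lung injury brings leukocyte influx, oedema and damage to the alveolar epithelium and endothelium.

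The detection threshold was nearly the same signal on all arrays. On each array the flag parted the probes completely by their background-subtracted signal, and the lowest value above the threshold was 5, 5 and 5.01 on the normal arrays (replicates 1 to 3). On the ARDS arrays it was 5, 5.19 and 5.08. Divided by the additive error that the scanner software estimated for the array, this lowest value was between 5 and 5.01 on every array. The lowest log2 processed signal among probes above the threshold, called the floor here, was 2.26 ± 0.0209 (SD, n = 3) on normal arrays and 2.28 ± 0.0582 (SD, n = 3) on ARDS arrays. The difference of 0.0279 was larger than the SD of the normal and smaller than that of the ARDS arrays, and the groups overlapped (two-sided exact permutation p = 0.5). The arrays themselves were dimmer in ARDS lung. The 75th percentile of the log2 signal over all circRNA probes differed by -1.24 between ARDS and normal arrays without overlap (exact permutation p = 0.1, the smallest that 3 arrays against 3 allow). Relative to that percentile the floor was therefore higher in ARDS lung, at -3.87 ± 0.406 (SD, n = 3), against -5.14 ± 0.161 (SD, n = 3) on normal arrays (exact permutation p = 0.1).

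These circRNAs were dim already in normal lung. The processed signal, an intensity in scanner units, had a median over the 252 probes of 10, 9.49 and 9.59 in normal replicates 1, 2 and 3. It ranged from 5.12 to 167 in replicate 1, from 5.03 to 77 in replicate 2 and from 5.11 to 72.6 in replicate 3. By their mean log2 signal in normal lung the probes lay between percentiles 6.55 and 49.8 of all circRNA probes, with a median at percentile 11.8. Their mean log2 signal in normal lung was under 3 for 78 probes, under 4 for 222 and 5 or more for 3. Together they carried 0.0678% ± 0.0123 (SD, n = 3) of the circRNA signal of a normal array.

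On ARDS arrays the median processed signal of the same probes was 3.02, 3.3 and 2.99 in replicates 1, 2 and 3. The highest values were 5.22, 5.63 and 5.58 and the lowest 0.97, 1.03 and 0.974. On the log2 scale the median was 3.28 ± 0.0415 (SD, n = 3) over the normal and 1.63 ± 0.0804 (SD, n = 3) over the ARDS arrays. Every one of the 252 probes had a lower mean log2 signal in ARDS lung, as the rule nearly requires, with differences from -5.58 to -0.48 and a median of -1.83. The median over all 13247 circRNA probes tested was -1.19. The authors' deposited table of log2 values runs the other way: the ARDS columns have the higher mean for all 252 probes, and indeed for all 13438 that it lists. Directions are those of the scanner signals throughout.

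**Figure D1:**
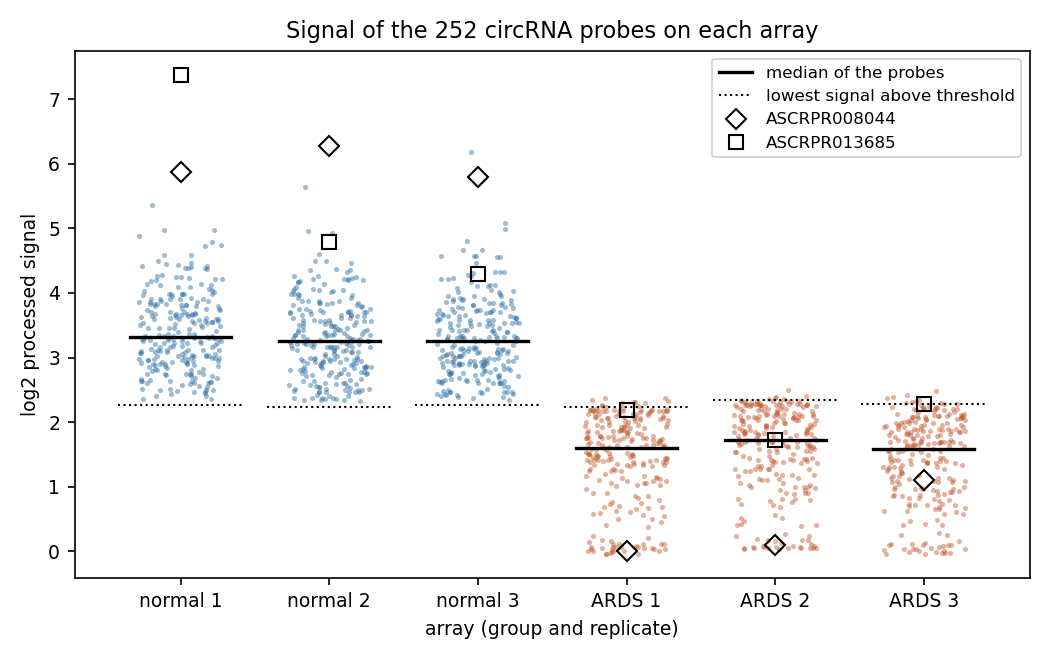
Log2 processed signal of the 252 circRNA probes (vertical axis) on each of the 6 arrays (horizontal axis, blue for normal and orange for ARDS lung). Points are probes, solid bars are the median of the probes, dotted bars the floor of the array, and open symbols the 2 named probes. The medians are 3.33, 3.25 and 3.26 on normal and 1.59, 1.72 and 1.58 on ARDS arrays. A band of points lies near 0 on the ARDS arrays, where the scanner software lists spots that lack a significant positive signal.

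Falling below the detection threshold was not the same as losing the signal. A less strict flag of the scanner software marks a spot as positive and significant against background. By that flag 190 of the 252 probes (75.4%) still gave a signal on all 3 ARDS arrays, 51 on 2, 8 on 1 and 3 on none. All 252 carried it on all normal arrays. Of the 756 spots of these probes on ARDS arrays, 76 lacked the flag. Those spots were listed at a processed signal between 0.97 and 1.15 whatever their background-subtracted signal, which ran from -1.99 to 1.02. Values in this narrow band have no order among themselves.

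The negative control spots, 77 per array and designed to have no target, give a second measure of background. On ARDS arrays their background-subtracted signal had a median of -1.05, -1.63 and -1.45 in replicates 1, 2 and 3 and a highest value of 0.823, 1.61 and 1.78. The circRNA probes had medians of 3, 3.32 and 3.06 on these arrays. Of the 252 probes, 228, 215 and 200 exceeded every negative control spot in ARDS replicates 1, 2 and 3, and 162 did so on all 3 arrays. A further 71 did so on 2 arrays, 15 on 1 and 4 on none. The highest negative control of an array was 1.12 ± 0.226 (SD, n = 3) on normal arrays and 1.4 ± 0.509 (SD, n = 3) on ARDS arrays, and the groups overlapped (exact permutation p = 0.5). The label of circRNAs that fall below background therefore holds for the scanner's well-above-background flag and, at the level of the negative controls, for 4 of the 252 probes on every ARDS array.

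**Figure D2:**
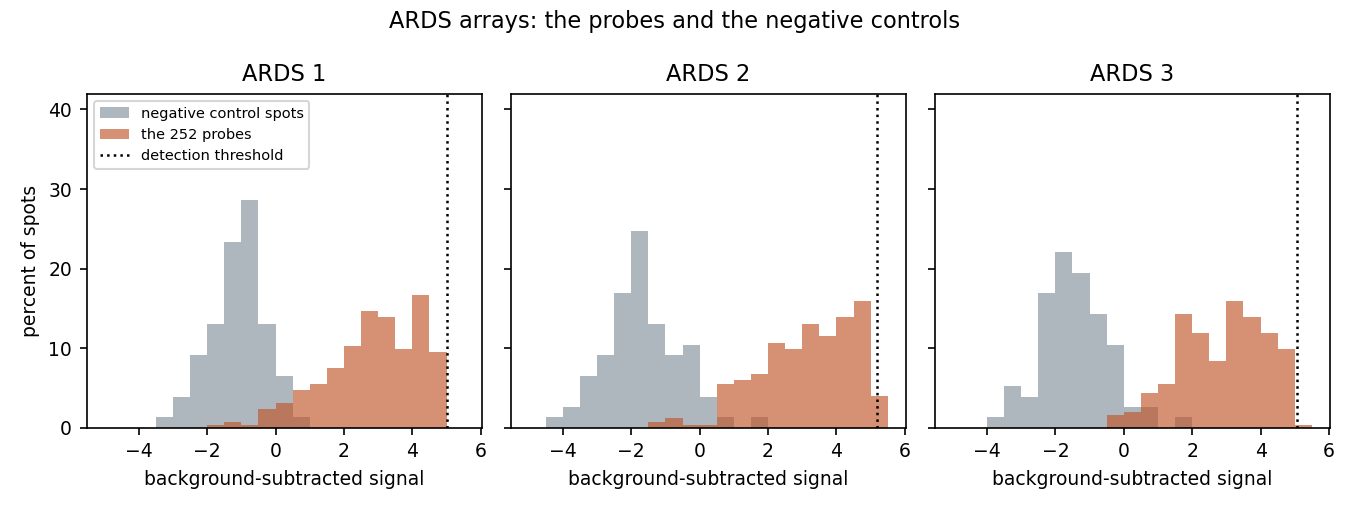
Background-subtracted signal in scanner units (horizontal axis) of the 252 circRNA probes (orange) and of the 77 negative control spots (grey) on each ARDS array, as a percentage of each set of spots (vertical axis). Dotted lines mark the detection threshold of the array; bars are 0.5 wide, so the bar that holds the threshold can reach past it. Most of the probes lie between the negative controls and the threshold, and 162 of them exceed every negative control spot on all 3 arrays.

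How closely the probes could be measured at this level was read from linear transcripts, which are spotted 10 times per array and were not part of the rule. Among linear probes with a mean log2 signal between 2.44 and 5.98, the range of the circRNA probes in normal lung, the SD over the 10 spots of 1 probe on 1 array had a median of 0.16 (209 sets of spots from 46 probes). Between -0.01 and 2.32, their range in ARDS lung, it was 0.54 (71 sets from 17 probes). The SD of the 252 circRNA probes between rats, each measured by a single spot per array, had a median of 0.26 in normal and 0.47 in ARDS lung. The rule keeps all normal values of a circRNA probe above the threshold and all ARDS values below it, which limits both of its SDs, so they are not compared with those of the linear probes. In the lower range 31 of the 71 sets (43.7%) held spots on both sides of the detection threshold, against 25 of 209 (12%) in the higher one.

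The order of the probes was reproduced in normal but hardly in ARDS lung. Across the 252 probes Pearson's r of the log2 signal was 0.674 to 0.747 among the normal and 0.134 to 0.325 among the ARDS arrays, and -0.0376 to 0.192 for pairs of arrays from different groups. The points share their arrays and the probes were chosen within a narrow range, so these values describe the measurement only. For the 4611 probes that stayed above the threshold on all 6 arrays and had a normal mean in the same range as the 252, r was 0.719 to 0.881 between normal and 0.576 to 0.794 between ARDS arrays. Within that range these 4611 were brighter. The median of their normal mean log2 signal was 5.04, against 3.23 for the 252, so the r values are not compared at equal level. Without scaling no single ARDS array was the low one. The lowest of the 3 ARDS values came from replicate 1 for 90 probes, from replicate 2 for 65 and from replicate 3 for 97. These counts also rank the spots near 0 that have no order. Relative to the 75th percentile of the array, replicate 2 had the lowest median of the probes. It was -4.94, against -4.39 and -4.24 in replicates 1 and 3.

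The share of probes that stayed above the threshold in ARDS lung was higher the brighter they were in normal lung. A probe's signal also depends on its sequence, so signals of different probes are set side by side as signals, not as amounts of RNA. Of 12951 probes above the threshold on all normal arrays, 11683 (90.2%) were above it on all ARDS arrays as well. With a normal mean log2 signal from 2.5 to 3, 76 of 249 probes (30.5%) were above the threshold on no ARDS array and 35 (14.1%) on all 3. From 3 to 3.5 these were 85 of 550 (15.5%) and 212 (38.5%), and from 3.5 to 4 they were 59 of 689 (8.56%) and 408 (59.2%). From 4 to 4.5 only 21 of 923 (2.28%) were lost on every ARDS array, from 4.5 to 5 there were 6 of 998 (0.601%), and from 5 to 6 there were 3 in all.

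**Figure D3:**
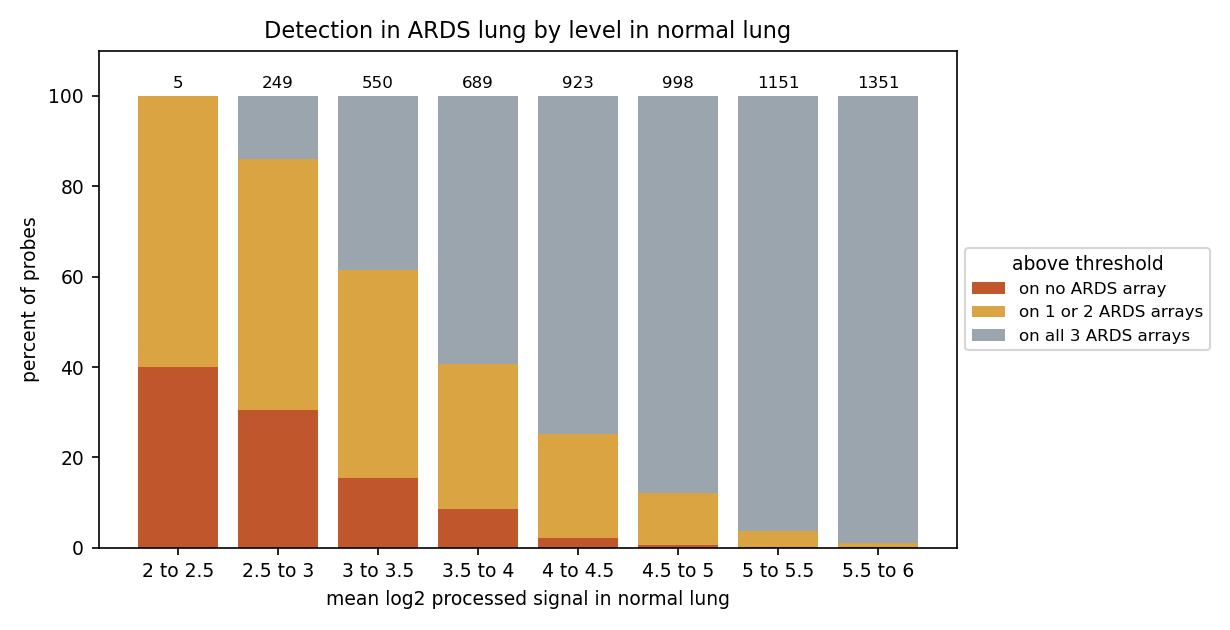
Share of probes (vertical axis, percent) that were above the detection threshold on no ARDS array (orange), on 1 or 2 (yellow) and on all 3 (grey), by the mean log2 processed signal in normal lung (horizontal axis). Only probes above the threshold on all normal arrays are included, and their number stands above each bar. The share above the threshold on no ARDS array goes from 30.5% between 2.5 and 3 to 2.28% between 4 and 4.5.

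At each level the 252 probes differed more between the groups than the others, which the rule brings about. From 3 to 3.5 the median unscaled difference was -1.73 for the 85 probes, -0.66 for all 550 and -0.09 for the 212 that stayed above the threshold. From 4 to 4.5 it was -2.46 for the 21 probes, -0.86 for all 923 and -0.65 for the 691 that stayed. Both subsets were chosen by their ARDS signal, and only the value over all probes of a level is free of that choice. The median SD between normal arrays was 0.31 for the 85 probes and 0.32 for all probes from 3 to 3.5, and 0.23 for the 21 and 0.26 for all from 4 to 4.5.

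**Figure D4:**
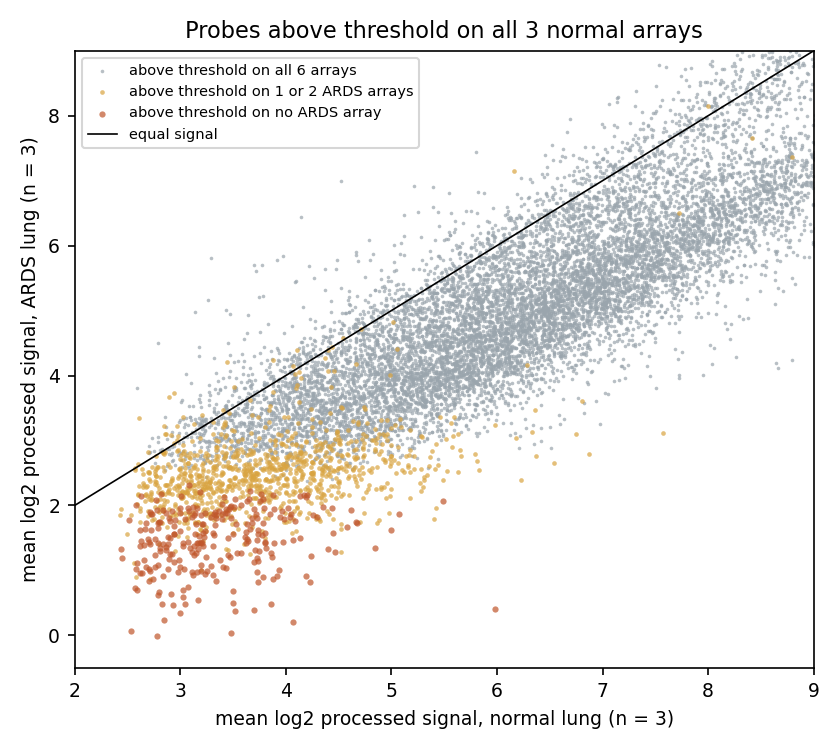
Mean log2 processed signal in ARDS lung (vertical axis, n = 3) against that in normal lung (horizontal axis, n = 3) for probes above the detection threshold on all normal arrays. Orange points are the 252 probes above it on no ARDS array, yellow points those above it on 1 or 2 ARDS arrays, and grey points those above it on all 3; the line marks equal signal, and brighter probes lie outside the plot. The orange points form the lower left edge of a cloud that lies mostly below the line, and 1 of them, ASCRPR008044, stands apart at 5.98 in normal and 0.4 in ARDS lung.

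Because no ARDS value of these probes was well above background, each decrease is given as a lower bound. The bound sets the mean log2 value in normal lung against the mean over ARDS arrays of the floor, or of the probe's own signal where that was higher. It allows for ARDS values under the threshold, not for the spread between rats or spots. Without scaling all 252 probes had a bound above 1-fold, as the rule nearly requires. The median bound was 1.93-fold, 122 probes had a bound of at least 2-fold and 15 of at least 4-fold. After subtracting the 75th percentile of each array, which sets these percentiles equal, 84 probes kept a bound above 1-fold. It was at least 1.5-fold for 24, at least 2-fold for 9 and at least 4-fold for 1. For the other 168 the scaled data set no bound, since their normal value lay at or below the level that could have been detected in ARDS lung. All 84 had a normal mean log2 signal of 3.5 or more.

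**Figure D5:**
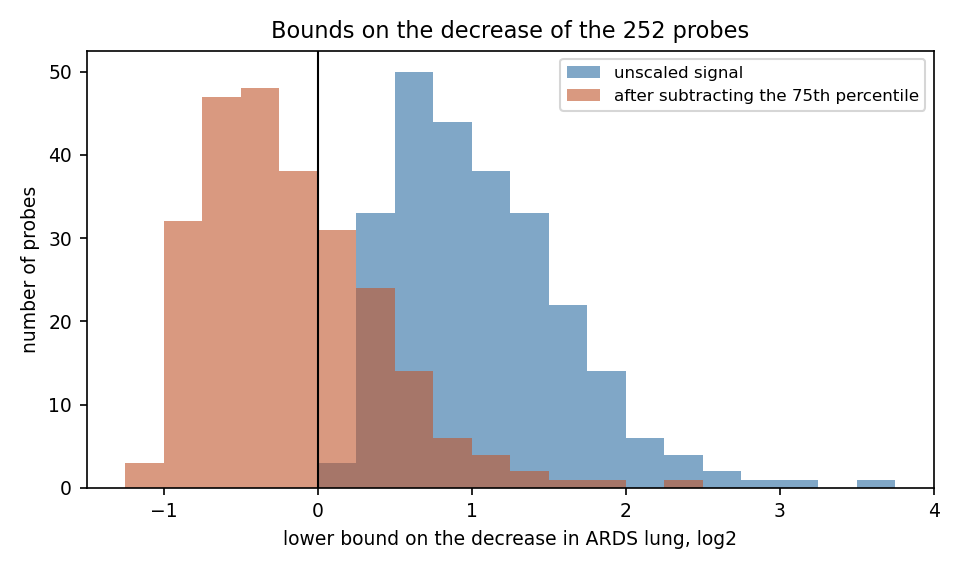
Number of probes (vertical axis) by the lower bound on their decrease in ARDS lung on the log2 scale (horizontal axis), without scaling (blue) and after subtracting the 75th percentile of each array (orange). The vertical line at 0 marks a 1-fold bound. All 252 probes lie to its right without scaling, as the rule nearly requires, and 84 do after scaling.

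The scaled difference had a median of -0.58 over the 252 probes, against 0.05 over all circRNA probes tested. It was below 0 for 216 probes and above 0 for 36, but ARDS values under the threshold give no exact difference. In the fit of all probes (limma, Benjamini-Hochberg adjusted over 13247) 45 of the 252 passed as lower in ARDS lung, where 8.16% of all probes tested did, and 0 passed as higher, where 11.5% did (2 of the 252 were higher at an unadjusted limma p under 0.05). Of these 45, 36 had a bound above 1-fold. Without scaling 240 of the 252 passed as lower, where 58.8% of all probes did. With quantile normalization there were 87, where 10.1% of all probes did. Normal and ARDS values were apart without overlap for 251 of the 252 probes when unscaled, where 65.9% of all probes tested were lower without overlap, and for 83 after scaling, where 21.7% were. All 252 entered the fit because of their normal arrays alone, and nothing is read from these counts beyond their size. The count of 45 moved with single arrays. Leaving out normal replicate 1 gave 8, normal replicate 2 or 3 gave 0, ARDS replicate 1 gave 19 and ARDS replicate 3 gave 71. Over all probes tested, 128 passed as lower without normal replicate 1 and 0 without normal replicate 2 or 3. Without ARDS replicate 1 or 3 there were 207 and 1562. In the limma fits that gave 0, 59 and 60 of the 252 probes were lower at an unadjusted limma p under 0.05. Of all 13247 probes, 3857 and 3299 had such a p in either direction. The lower ones alone were not counted over all probes, so these counts give no share to set the 252 against. Without ARDS replicate 2, 38 passed as lower and 5 as higher, where 1067 and 2023 of all probes did.

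ASCRPR008044, the array's own identifier, had the largest bound. Its processed signal was 58.8, 77 and 55.5 in normal replicates 1 to 3 and 1.01, 1.07 and 2.14 in ARDS replicates 1 to 3. The normal values lay close together and far above the threshold, whereas the first 2 ARDS values lacked the positive and significant flag and lay within the range of the negative controls, with background-subtracted signals of -0.564 and -0.902. Relative to the 75th percentile the log2 value was -1.42 ± 0.41 (SD, n = 3) for normal and -5.76 ± 0.94 (SD, n = 3) for ARDS lung. Its bound was 5.47-fold after scaling and 13-fold without. With 1 array left out, a setting chosen after seeing the data, the scaled bound was 4.66-fold to 6.16-fold. Without normal replicate 2, and likewise without normal replicate 3, 1 other probe had a larger bound.

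ASCRPR013685 had the second largest bound, and its normal values were far apart. The processed signal was 167, 27.6 and 19.7 in normal replicates 1 to 3 and 4.56, 3.32 and 4.87 in ARDS replicates 1 to 3. Normal replicate 1 was several times brighter than the other normal arrays, and all ARDS arrays lay under the threshold and kept the positive and significant flag. The scaled log2 value was -1.91 ± 1.51 (SD, n = 3) for normal and -4.09 ± 0.74 (SD, n = 3) for ARDS lung, with a bound of 3.9-fold. Without normal replicate 1 the bound was 2.16-fold, and 5 of the 252 probes had a larger one. Without normal replicate 2 it was 4.68-fold and without normal replicate 3 it was 5.86-fold, each the largest of the 252.

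The other 7 probes with a bound of at least 2-fold lay between 2.08-fold and 2.91-fold. Their processed signals ran from 15 to 72.6 on normal and from 1.64 to 4.85 on ARDS arrays, and all 7 kept the positive and significant flag on every ARDS array. Normal values spread over more than 1 log2 unit, as for ASCRPR013685, were found for 25 of the 252 probes, and ARDS values for 118.

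Without scaling, wide and narrow gaps around the threshold were both present. A background-subtracted signal of at least 10 on every normal array was found for 78 probes, one under 2.5 on every ARDS array for 20, and both together for 8. Among these 8, ASCRPR008044 had a scaled bound of 5.47-fold, and the others had at most 1.45-fold or none. Some of the 8 kept the positive and significant flag on every ARDS array. At the other end, 60 probes had a lowest normal value under 6, 144 had a highest ARDS value of 4 or more, and 25 had both. Just inside the rule, the lowest normal value of any probe was 5.05 and the highest ARDS value 5.18. Just outside it, 344 probes were above the threshold on all normal arrays and on 1 ARDS array, which was replicate 2 for 188, replicate 1 for 102 and replicate 3 for 54. Their median of the highest ARDS value was 6.53, against 4.19 among the 252, and their median unscaled difference was -1.47. Another 107 were above the threshold on 2 normal arrays and on no ARDS array, with a median unscaled difference of -1.16. With the 188 added, the same rule without ARDS replicate 2 took 440 probes.

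The local background and the place on the array, which the rule did not use, were close to those of all circRNA probes. The local background around their spots was 17.9 ± 0.415 on normal and 19.4 ± 4.38 on ARDS arrays (SD, n = 3 each). Around all circRNA spots it was 17.9 ± 0.492 and 19.4 ± 4.38. The higher ARDS mean came from replicate 3, at 24.4 for the 252 probes, against 17.6 and 16.2 in replicates 1 and 2. The raw spot signal before background subtraction, from which the flag derives, had a median of 30.5 ± 0.433 on normal and 25 ± 1 on ARDS arrays (SD, n = 3 each). By rows of the array the 252 probes fell into 4 equal bands in shares of 26.2%, 21.4%, 24.6% and 27.8%, and by columns in shares of 27%, 23.4%, 22.2% and 27.4%, where all circRNA probes had between 24.4% and 25.7%. Of 62 probes for linear transcripts, 50 were above the threshold in most of their spots on all normal arrays, and 1 of these 50 was so on no ARDS array while 45 were so on all 3. Linear probes were judged by most of their repeated spots and circRNA probes by a single spot, in RNA treated with RNase R. Their shares are therefore not compared.

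In the authors' deposited table the 252 probes were also among the dim ones, with a median at percentile 3.71 of its probes by their mean over the columns and a highest at 22.1. The median of the probes there was 4.75 ± 0.0403 over normal and 4.95 ± 0.0192 over ARDS columns (SD, n = 3 each). For ASCRPR008044 the authors' deposited table gives means of 4.45 for the normal and 6.09 for the ARDS columns, and for ASCRPR013685 means of 4.81 and 5.95, against the order of the scanner signals.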

How the data were processed

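Agilent Feature Extraction, version 11.0.1.1, is named in the submitters' processing notes and the file headers. The deposited scanner files give each spot's intensity, background-subtracted and spatially detrended within the array per the file headers, with no scaling between arrays, together with the software's flags. The authors also deposited a table of log2 values; limma is named, per the submitters' processing notes.

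Outlier spots were left out. The log2 processed signal minus each array's 75th percentile over circRNA probes was compared with limma 3.58.1 in R 4.3.3 (two-sided, Benjamini-Hochberg, threshold 0.05), over 13247 probes above the detection threshold on at least 3 of 6 arrays. The procedure was tested on simulated data. Single values per array were compared by an exact permutation test. The number of arrays limits the precision. The named probes are the 2 with the largest bound on the decrease. The probes, groupings and tests were chosen with earlier results of these data known. Alternatives covered the scaling, background correction, filter, variance model, blocks, each array left out and other thresholds. The normexp correction used the median signal. 0 columns of other samples were present.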

Additional observations from a re-analysis of the deposited data

How the results depend on the processing

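The number of probes depended on where detection was set. It was 16 with the positive and significant flag (3 shared with the 252), 61 with 1 common floor on the scaled signal (22 shared) and 245 with 1 common floor on the unscaled signal (234 shared). Other settings were chosen after seeing the data. With a background-subtracted threshold of 2.5, 5 and 10 it was 62, 241 and 608 (20, 241 and 78 shared). With the highest negative control spot as the threshold, also chosen after seeing the data, it was 27 (4 shared). Leaving out 1 array gave 272 to 440, the latter without ARDS replicate 2. The 45 probes that passed as lower became 240 with no scaling, 87 with quantile normalization and 8 with normexp and quantile normalization. Over all probes 7787, 1344 and 1146 passed, so with normexp a smaller share of the 252 passed than of all. Array weights gave 78 and the scan as a block 71, where 1807 and 1562 of all probes passed. The scan block gave the same counts as leaving out ARDS replicate 3, the only array of its scan. With 1 array left out there were 0 to 71, where 0 to 1562 of all probes passed. In the 7 other settings the count was 32 to 62, and 928 to 1324 over all probes where counted. Rat numbers mark different animals, and the labels name no pairs. Same-numbered arrays deviated from their group means with correlations of 0.589, -0.229 and 0.138, and differently numbered ones with -0.599 to 0.552. With so few arrays these values cannot decide whether the numbers pair them. With the replicate number as a block 51 passed (replicate block), where 1129 of all probes did. The median difference of -0.58 was -1.83 with no scaling, -1.07 with quantile normalization, -0.09 with normexp, whose offset of 50 draws dim values together, and -0.69 to -0.41 with 1 array left out. The difference of 0.0279 in the floor was -0.315 with the 5th percentile as the floor (exact permutation p = 0.1) and -0.00112 to 0.0571 with 1 array left out, the lowest without ARDS replicate 2. A filter requiring all 6 arrays removes all 252 probes.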
